A study of Canis lupus familiaris with 25 samples.

Results

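The genes of fatty acid synthesis and desaturation were examined in archival tumors of dogs. The 10 genes listed were SCD, FASN, ACACA, ACLY, FADS1, FADS2, ELOVL1, ELOVL4, ELOVL5 and ELOVL6, and 9 of them were found as row names among the 24532 genes of the count table. FADS1 was not a row name. The row LOC483793 carries the NCBI gene number that RefSeq (UU_Cfam_GSD_1.0) gives for FADS1, so its values are described beside the others under the name LOC483793 and are not counted among the 9.

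The tumors were 10 hepatoid gland adenomas (HGA), which are benign perianal tumors, and 11 primary apocrine gland anal sac adenocarcinomas (AGASAC), which are malignant. With them were 4 sublumbal lymph node metastases that belong to the dogs of AGASAC primary tumors 1 to 4. All were formalin-fixed and paraffin-embedded (FFPE) tumors of pet dogs, and RNA of whole cross sections was read with QuantSeq 3′, which counts transcripts near their 3′ end. The study contrasted these tumors, which behave very differently, to compare methods of measuring expression. The dogs were 8 to 14 years old in HGA, 8 to 12.5 in AGASAC primary tumors and 8 to 10 in the metastases, and tissue next to the tumor had been cut away before extraction. Intact dogs gave 6 of 10 HGA, 2 of 11 AGASAC primary tumors and 1 of 4 metastases, and the others were from neutered dogs. Hormone status was thus uneven across the tumor types, and its part in the differences was not tested. Each tumor group held both male and female dogs, and the part of sex was not tested either. The metastases lay in lymph nodes, so their site differed from that of the primary tumors, and the part of site was not tested. The DV200, a measure of RNA fragment length, was 70.5 to 92.7% in HGA, 70.2 to 84.4% in AGASAC primary tumors and 71.8 to 82.9% in the metastases.

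In this pathway, ACLY releases acetyl-CoA from citrate in the cytosol, ACACA carboxylates it to malonyl-CoA, and FASN assembles palmitate from these units. SCD places a double bond in saturated chains and makes monounsaturated fatty acids, ELOVL enzymes catalyze the first step of chain elongation, and FADS1 and FADS2 desaturate polyunsaturated chains. Skin glands that secrete lipid are known for strong use of this pathway, and SREBP transcription factors control many of its genes.

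Depth ranged from 1562347 to 6389555 counts per sample. Values of samples are CPM, counts scaled to library size by trimmed mean of M-values (TMM) over all 25 samples. The limit for a gene at 0 was set at 3 counts, or 0.470 to 1.92 CPM. Shares and limits cover counting error only, since molecular identifiers were not used here. One library stood apart. HGA 10 was the only HGA of RNA extraction batch 9 and the only HGA of the second of 2 naming series of the sequencing files. Its sebaceous markers summed to 1208 CPM against 3479 to 5026 CPM in the other 9 HGA, with 8 of 8 listed genes in the table, and this gap lay in KRT79 at 39.1 CPM against 977 to 2427 CPM and in CIDEA at 386 CPM against 1409 to 2365 CPM. AWAT2 at 11.6 CPM, SOAT1 at 60.2, MC5R at 41.7 and FABP5 at 10.8 were within the range of the other HGA, and PLIN2 was the highest of the HGA at 658 CPM. Its squamous or basal markers summed to 5096 CPM, within the 3233 to 12874 CPM of the others, and its glandular luminal markers were at 78.3 CPM against 590 to 1528 CPM, where AGASAC primary tumors had 4823 to 10085 CPM. Most of that sum in HGA 10 was CLDN4, at 77.0 CPM against 446 to 1409 CPM in the other HGA. CLDN4 was not called between HGA and AGASAC primary tumors (log2FC −0.04). KRT8 and PIP were at 0 in HGA 10, as in most of the other HGA. Every AGASAC primary tumor had at least 227 CPM of KRT8 and 887 CPM of PIP. Batch and library cannot be told apart, and values without HGA 10 stand beside the results that rest on it.

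In the “HGA versus AGASAC” comparison of the 21 primary tumors, 5 of the 9 genes differed, 4 of them “up” in HGA (SCD, ELOVL5, ACLY and FASN) and ELOVL1 “down”. A call needed an adjusted p (Benjamini-Yekutieli) no higher than 0.05 in edgeR's quasi-likelihood test together with a log2FC of at least 1 or at most −1. Of the 12070 genes tested, 25.1% were called, 12.6% “up” and 12.5% “down”. With library size alone in place of TMM, 1053 genes were “up” and 2156 “down”, against 1523 and 1509, since the median log2 ratio of mean CPM over all genes moved by −0.25. The 5 genes kept their calls and directions under that scaling, with log2FC of 4.96 for SCD, 8.07 for ELOVL5, 2.23 for ACLY, 1.38 for FASN and −1.52 for ELOVL1. The median log2FC was 0.61 over the 9 genes and −0.03 over all genes tested. DESeq2 called 5 of the 9 as well, beside 18% of the 24332 genes it tested. Without HGA 10, 5 of the 9 were called, beside 27.3% of 12375 genes. In bulk tumor tissue, a change in the number of cells of a type and in the RNA per cell cannot be told apart.

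**Figure D1:**
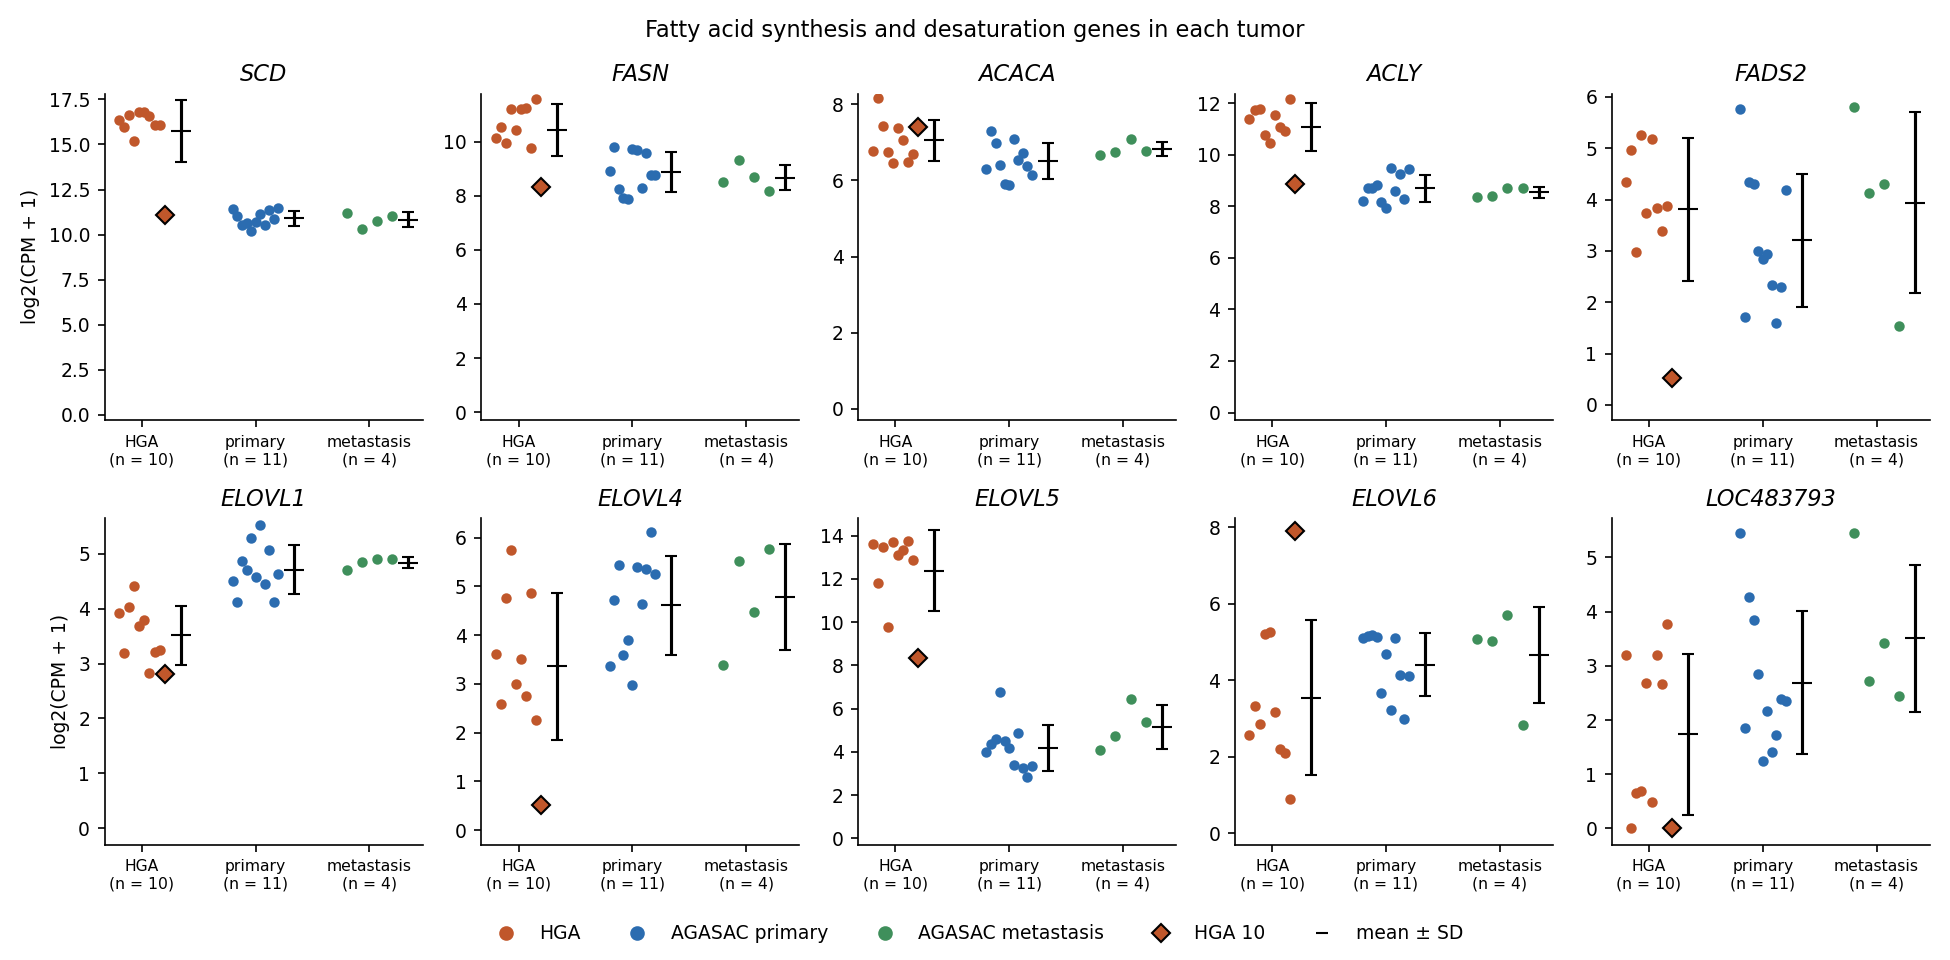
Level of each gene in each of the 25 tumors, as log2(CPM + 1), by tumor type, with the mean ± SD of the log2 values beside the points and HGA 10 as a diamond. ELOVL5 separates all 10 HGA from the 11 AGASAC primary tumors, SCD and ACLY separate 9 of 10, and FADS2, ELOVL4, ELOVL6 and LOC483793 overlap widely.

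SCD, the delta-9 desaturase, was 2206 CPM in the lowest HGA, 76685 in the median and 116391 in the highest. In AGASAC primary tumors it was 1154, 1890 and 2872 CPM, and the metastases had 2379, 1273, 1726 and 2123 CPM in dogs 1 to 4. The lowest HGA was HGA 10, which fell within the range of AGASAC, while the other 9 HGA were all above it, from 37005 CPM in HGA 4 upward. The log2FC was 5.27 (SE 0.45, edgeR adjusted p = 1.94e-08), a 38.5-fold difference, with means of 75429 ± 35760 CPM in HGA (SD, n = 10) and 1992 ± 582 CPM in AGASAC primary tumors (SD, n = 11). Without HGA 10 it was 5.42 (SE 0.27). SCD was the most counted gene in 8 of 10 HGA.

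SCD took 3.85 to 9.80% of all counts in 9 HGA, with the highest share in HGA 5 (95% Wilson interval 9.76 to 9.84%). In HGA 10 the share was 0.203% (0.198 to 0.209%), and in AGASAC primary tumors it was 0.127 to 0.308%. ELOVL5 took 0.0918 to 1.33% of the counts in those 9 HGA and 0.0298% in HGA 10. In AGASAC primary tumors it took 0.000634 to 0.0123%. Leaving the counts of SCD out of the library sizes gave a log2FC of 5.27 for SCD and 8.42 for ELOVL5. The TMM factors were computed again on those library sizes and take up such a change. This setting therefore could not show an effect of the share of SCD.

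**Figure D2:**
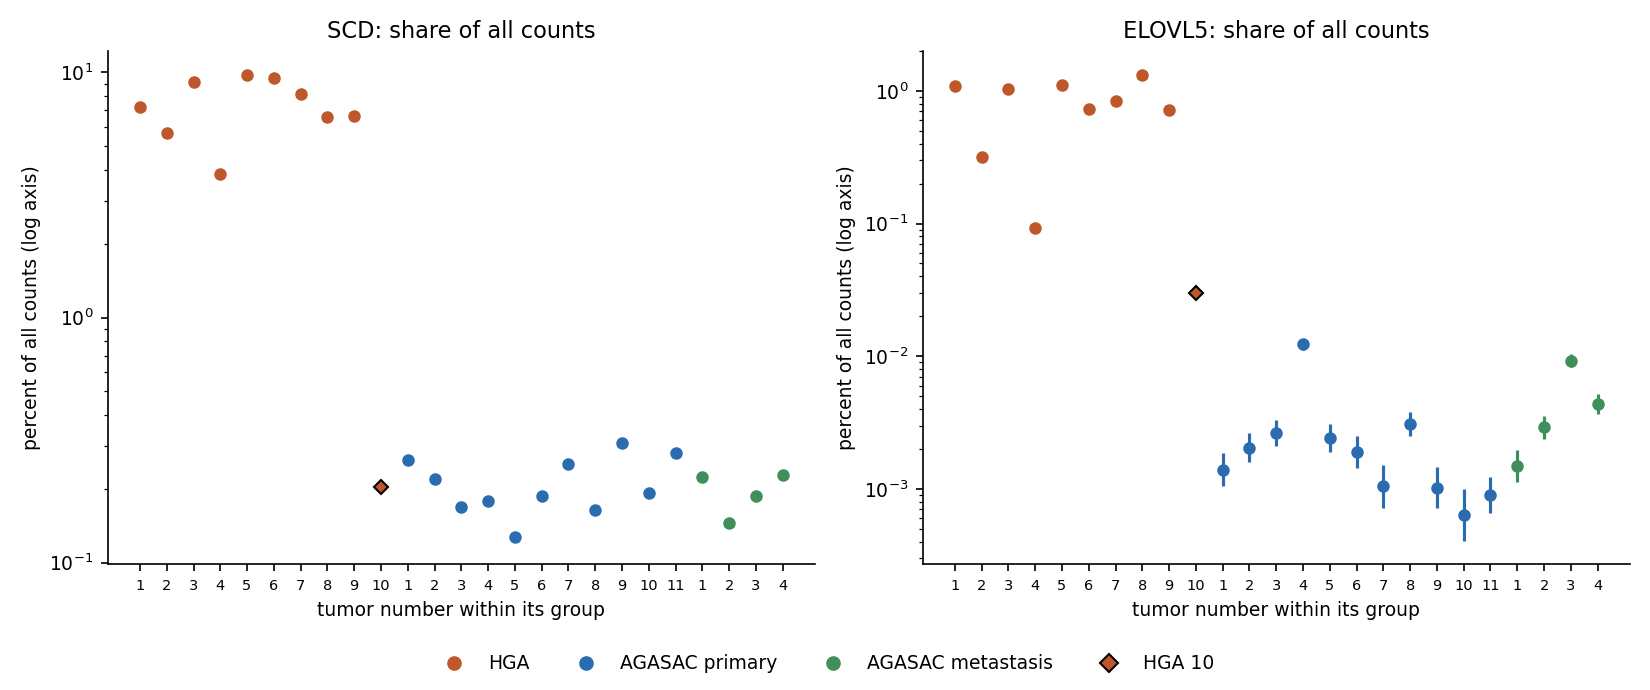
Share of all counts taken by SCD and by ELOVL5 in each tumor, in percent on a log axis, with 95% Wilson intervals that cover counting error only. SCD takes 3.85 to 9.80% in 9 HGA, and HGA 10, the diamond, lies at 0.203% among the AGASAC; ELOVL5 in HGA 10 lies above all AGASAC.

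ELOVL5 elongates polyunsaturated acyl chains, and it showed the largest log2FC of the 9 genes. It was 324 CPM in the lowest HGA, 9476 in the median and 13723 in the highest. The AGASAC primary tumors had 6.20, 16.9 and 108 CPM in the same order, and the metastases had 15.9, 25.5, 85.2 and 40.9 CPM in dogs 1 to 4. The groups did not overlap, as was true of 9.13% of all genes tested, and ELOVL5 was the only one of the 9 without overlap. HGA 10 was again the lowest HGA and HGA 4 the next at 882 CPM, and the highest AGASAC was primary tumor 4, with the next AGASAC primary tumor at 27.8 CPM. The log2FC was 8.42 (SE 0.72, edgeR adjusted p = 2.01e-08), a 344-fold difference, and 8.57 (SE 0.63) without HGA 10.

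ACLY had 465 CPM in the lowest HGA, 2443 in the median and 4608 in the highest, against 247, 414 and 721 CPM in AGASAC primary tumors. The metastases had 326, 333, 420 and 424 CPM in dogs 1 to 4. Only HGA 10 fell in the range of the primary AGASAC. The log2FC was 2.54 (SE 0.31, edgeR adjusted p = 3.69e-06), with means of 2504 ± 1201 CPM in HGA (SD, n = 10) and 441 ± 168 CPM in AGASAC primary tumors (SD, n = 11), and 2.66 (SE 0.25) without HGA 10. Without HGA 10, 3 of the 9 genes (SCD, ACLY and ELOVL5) had no overlap, beside 12.9% of all genes tested.

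FASN, the synthase, was 320 CPM in the lowest HGA, 1441 in the median and 3099 in the highest. AGASAC primary tumors had 235, 441 and 888 CPM, and the metastases had 363, 634, 410 and 290 CPM in dogs 1 to 4. HGA 8 and HGA 10 lay within the range of AGASAC, and 8 HGA lay above it. The log2FC was 1.68 (SE 0.34, edgeR adjusted p = 0.00275), and 1.80 (SE 0.30) without HGA 10.

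ACACA, whose product FASN uses, had 86.8 to 287 CPM in HGA and 57.5 to 157 CPM in AGASAC primary tumors. Its log2FC of 0.61 (SE 0.22, edgeR adjusted p = 0.287) was not called, and its groups overlapped, with 4 HGA above every AGASAC primary tumor. HGA 10 had 168 CPM, the third highest of the HGA, while it was the lowest HGA in ACLY and FASN.

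ELOVL1, which elongates saturated and monounsaturated very long chains, was “down” in HGA. It was 6.02 CPM in the lowest HGA, 10.2 in the median and 20.3 in the highest, against 16.3, 23.8 and 44.7 CPM in AGASAC primary tumors. The metastases had 25.0, 27.9, 28.9 and 28.8 CPM. All HGA except HGA 4 were below all AGASAC primary tumors. The log2FC was −1.22 (SE 0.25, edgeR adjusted p = 0.00261), and −1.15 (SE 0.24) without HGA 10. This gene had 14 counts in HGA 10.

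The other elongases and the polyunsaturated-chain desaturases were low and not called. ELOVL4, which makes the longest chains of skin lipids, was 0.430 to 52.3 CPM in HGA and 6.89 to 68.6 CPM in AGASAC primary tumors (log2FC −0.93, SE 0.52, edgeR adjusted p = 1). FADS2 was 0.430 to 37.5 CPM in HGA and 2.01 to 53.6 CPM in AGASAC primary tumors (log2FC 0.51, SE 0.56). HGA 10 held 1 count of each, under the limit that a count of 0 allows. LOC483793 was 0 to 12.7 CPM in HGA and 1.38 to 42.8 CPM in AGASAC primary tumors (log2FC −1.07, SE 0.73). It was at 0 in HGA 2 and HGA 10.

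ELOVL6, which elongates palmitate, turned on HGA 10. It was 236 CPM there (549 counts), and 0.848 to 37.2 CPM in the other 9 HGA, of which 5 were below all AGASAC primary tumors at 6.86 to 35.3 CPM. The log2FC was 0.60 (SE 0.69, edgeR adjusted p = 1) over the 21 tumors and −0.94 (SE 0.51, edgeR adjusted p = 1) without HGA 10, which reversed its direction. It held 2 counts in HGA 9 and 8 in HGA 8.

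**Figure D3:**
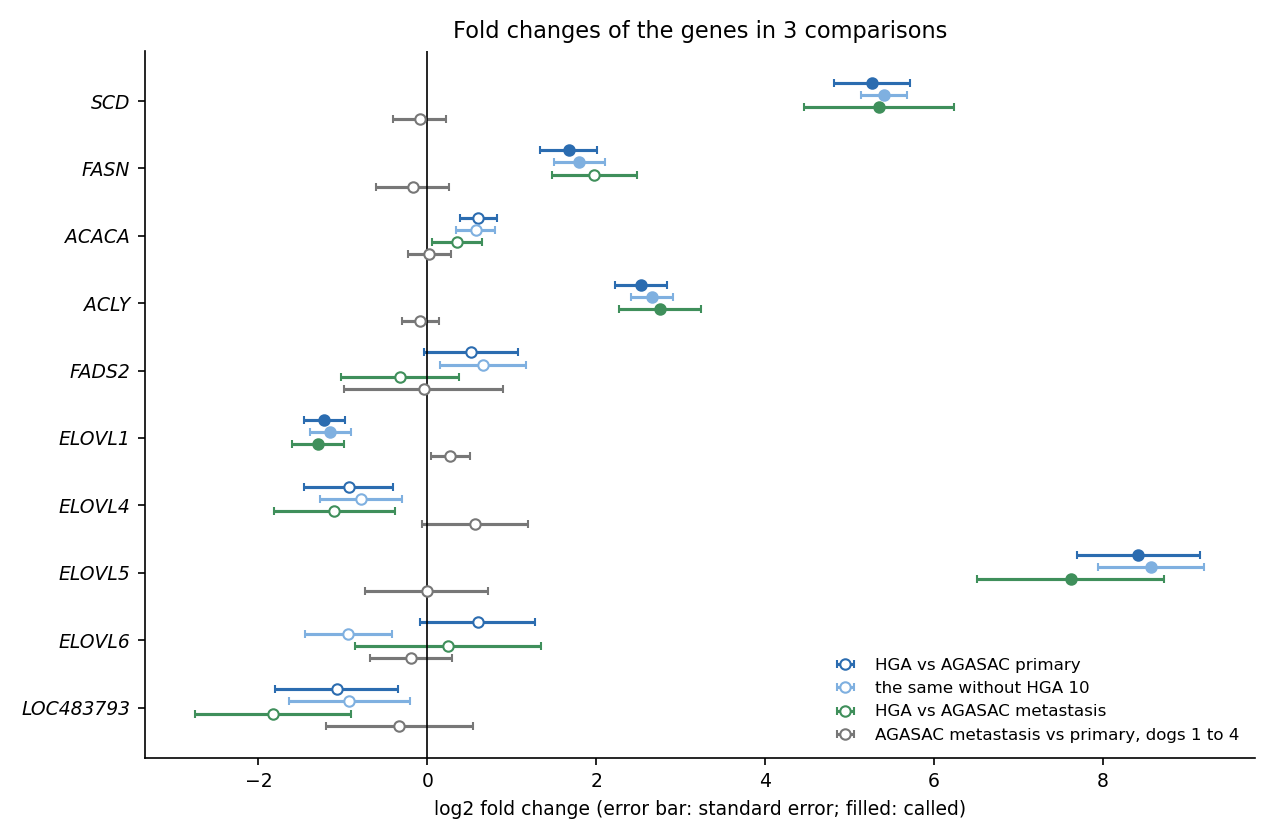
Log2 fold change with its standard error for each gene in HGA versus AGASAC primary, the same without HGA 10, HGA versus AGASAC metastasis and AGASAC metastasis versus primary of dogs 1 to 4, with called values filled. ELOVL5 and SCD lie farthest from 0 in both comparisons with HGA, ELOVL6 changes sign without HGA 10, and no value is filled between metastasis and primary.

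The tumor types were unevenly spread over the RNA extraction batches, and 3 batches held at least 2 of each. Within batches 5, 6 and 8, the log2FC of SCD was 4.79, 5.79 and 5.75, and that of ELOVL5 was 9.08, 7.31 and 9.01. For ACLY it was 2.25, 2.88 and 2.98, for FASN 1.75, 1.34 and 2.18, and for ELOVL1 −1.51, −1.03 and −1.38. The direction of these 5 genes was the same in each of the 3 batches, with 2, 2 and 3 of the 9 genes called there, beside 2.12%, 4.84% and 2.46% of all genes tested. The naming series were uneven over the tumor types as well, with 9 of 10 HGA but 3 of 11 AGASAC primary tumors in the first. Among the tumors of this first series, SCD, ELOVL5 and ACLY were called, beside 16.1% of 13433 genes.

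The members did not shift by the same amount. The log2 ratio of SCD to FASN, from CPM with a pseudocount of 1, was 5.31 ± 1.24 in HGA (SD, n = 10) and 2.03 ± 0.58 in AGASAC primary tumors (SD, n = 11), and the difference was 3.29 (two-sided permutation test, p = 1e-05, the smallest that 100000 resamples can give, Benjamini-Hochberg adjusted p = 2e-05 over 4 ratios). The ratio in HGA 10 was 2.78, just above the highest AGASAC primary tumor at 2.70, and the difference was 3.57 without it. The log2 ratio of ELOVL6 to ELOVL5 was −8.83 ± 3.67 in HGA (SD, n = 10) and 0.22 ± 0.82 in AGASAC primary tumors (SD, n = 11), with a permutation p of 1e-05 (adjusted p = 2e-05). HGA 10 had −0.45, inside the range of AGASAC, and the difference of −9.05 became −9.98 without it. ELOVL5 alone had a log2FC of 8.42 and ELOVL6 was not called, so this ratio largely repeats the difference in ELOVL5.

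The log2 ratio of FADS2 to LOC483793 was 2.07 ± 1.94 in HGA (SD, n = 10) and 0.52 ± 0.69 in AGASAC primary tumors (SD, n = 11), with overlapping groups (permutation p = 0.0186, adjusted p = 0.0248). The 3 highest ratios came from HGA with 0 to 2 counts of LOC483793, so they rest on the pseudocount. The difference was 1.73 without HGA 10. The log2 ratio of ELOVL4 to ELOVL1 differed by −0.06 (permutation p = 0.911, adjusted p = 0.911).

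**Figure D4:**
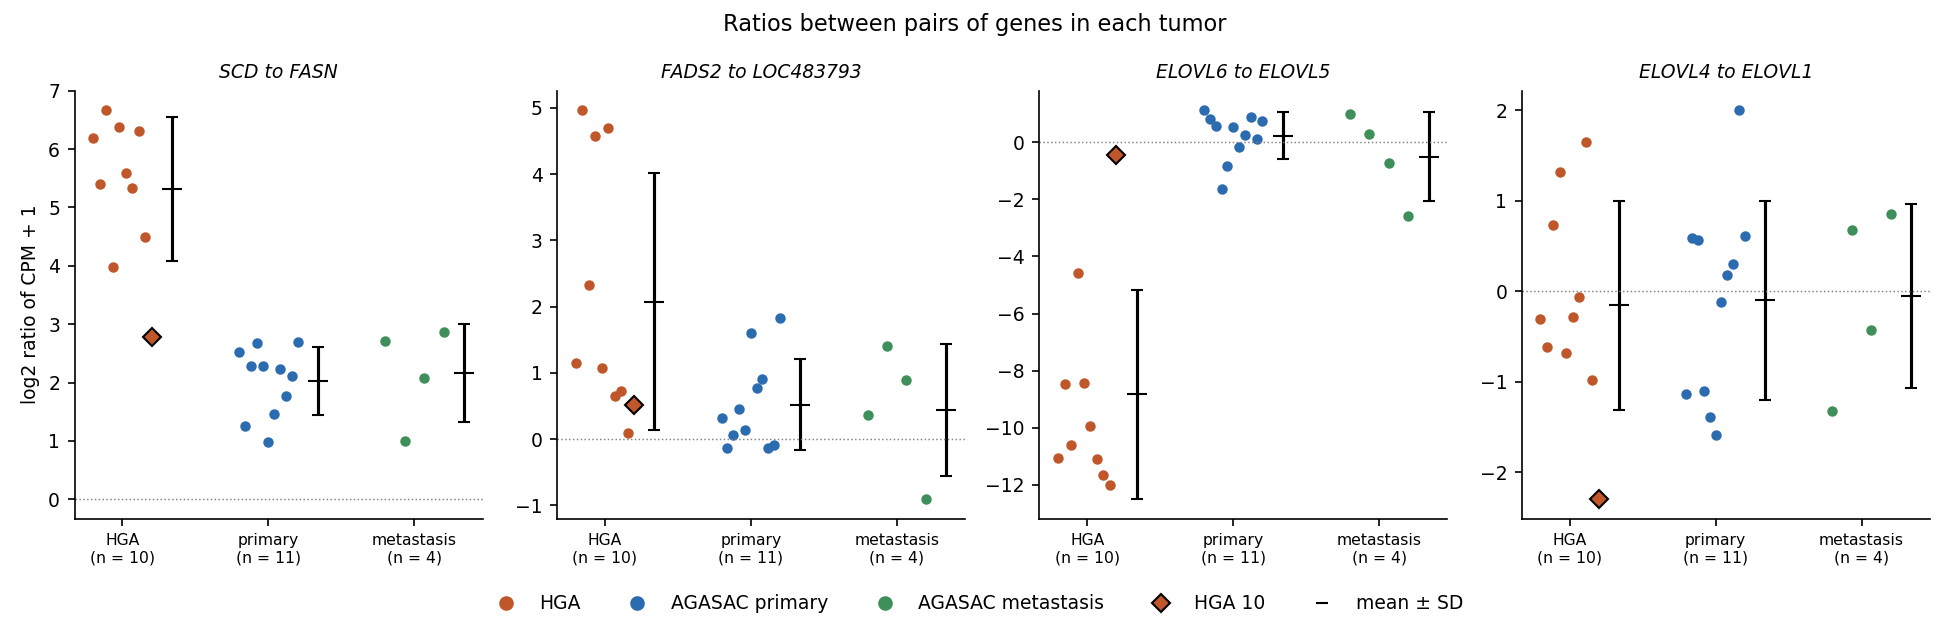
Log2 ratio of CPM + 1 between pairs of genes in each tumor, with the mean ± SD beside the points and HGA 10 as a diamond. SCD to FASN in all 10 HGA is above the highest AGASAC primary tumor at 2.70, but HGA 10 is not above every metastasis. ELOVL6 to ELOVL5 is far below 0 in 9 of 10 HGA.

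Within a tumor type, 0 of 18 correlations of the genes with FASN passed a Benjamini-Hochberg adjusted p of 0.05 by a permutation test, and 2 had an unadjusted p under 0.05 for r. The most related in HGA was FADS2, with a Pearson r of 0.817 over 10 samples (permutation p = 0.00844, adjusted p = 0.152). Its Spearman rho was 0.661 (permutation p = 0.0438, adjusted p = 0.461). Leaving out the pair of samples whose FASN lay farthest from the median gave an r of 0.681, and leaving out HGA 10 gave 0.499. SCD and FASN gave an r of 0.704 in HGA (permutation p = 0.0659, adjusted p = 0.198) and a rho of 0.176 (permutation p = 0.629, adjusted p = 0.872), and r was −0.12 after the same exclusion, so this relation rested on those samples. In AGASAC primary tumors, r was 0.603 for SCD (permutation p = 0.0526, adjusted p = 0.198) with a rho of 0.609 (permutation p = 0.0524, adjusted p = 0.461), and r was 0.786 after that exclusion.

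By the correlation of log2(CPM + 1) after subtracting each group's mean, over 25 samples, the genes most like SCD were CLDN4 (r = 0.943), ECHDC1 (0.938) and LGALS4 (0.932). Those most like FASN were RGCC (0.796), EVPL (0.787) and CAMK1 (0.766). HGA 10 was the lowest HGA in each of the 6 genes. Without HGA 10, 0 of these 6 were among the top 3, and the genes most like SCD were MFSD12 (0.825), BCKDHA (0.795) and PSMB7 (0.785), over 24 samples.

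The comparison of HGA with the 4 metastases shares its HGA samples with the first. Of the 13195 genes tested, 16.1% were called, 8.4% “up” and 7.69% “down”, and the groups did not overlap in 16.1%. Of the 9 genes, 3 were “up” in HGA and ELOVL1 was “down”, and 3 did not overlap (ACLY, ELOVL1 and ELOVL5). The log2FC was 5.35 for SCD (SE 0.89, edgeR adjusted p = 0.00244), 7.62 for ELOVL5 (SE 1.11, edgeR adjusted p = 7.10e-04) and 2.76 for ACLY (SE 0.48, edgeR adjusted p = 0.00392). Without HGA 10 these were 5.50, 7.79 and 2.89, and 5 of the 9 genes were called, beside 19.5% of 13263 genes. FASN, with a log2FC of 1.98 (SE 0.50), missed the threshold at an adjusted p of 0.0603 in edgeR, passed it in DESeq2 (adjusted p = 0.00178), which called 12.8% of 23678 genes, and passed it in edgeR without HGA 10 (adjusted p = 0.00652). ELOVL1 had a log2FC of −1.29 (SE 0.31, edgeR adjusted p = 0.0454). Its call was lost when any HGA other than HGA 4 or HGA 10, or any metastasis, was left out, with an edgeR adjusted p of 0.0110 to 0.164 across the 14 exclusions of a single sample. It was also lost with no filter on low counts (edgeR adjusted p = 0.0841), where 3 of the 9 genes were called.

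Between the metastases and the primary tumors of the same 4 dogs, 0 of the 9 genes were called, and 0% of the 12629 genes tested were called by edgeR. This fit did not pair the samples by dog, and the shares, log2FC and SE that follow are also unpaired. At an unadjusted p under 0.05 there were 1.15% of all genes and 0 of the 9, and DESeq2 called 12 genes, 0 of them among the 9. The log2FC of SCD was −0.09 (SE 0.31), that of FASN −0.17 (SE 0.43), that of ACLY −0.08 (SE 0.22) and that of ELOVL1 0.27 (SE 0.23). Within single dogs, ELOVL1 was higher in the metastasis in 4 of 4, on log2(CPM + 1) by 0.19, 0.73, 0.04 and 0.19. ELOVL5 was higher in 3 of 4 dogs, with differences of 0.10, 0.36, 1.82 and −1.38. An edgeR fit paired by dog called 1 of the 12629 genes and 0 of the 9.

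Among HGA, 6 were from intact and 4 from neutered dogs. Of the intact dogs, those of HGA 3 and HGA 5 were female and the others male. Of the neutered dogs, only that of HGA 10 was male. Hormone status was thus mixed with sex, and the part of sex was not tested. No gene was called by edgeR (0% of 11906 tested), 9.8% had an unadjusted p under 0.05, and DESeq2 called 25 genes, 0 of them among the 9. FASN was the only one of the 9 with an unadjusted p under 0.05. It was 995 to 3099 CPM in intact and 320 to 1492 CPM in neutered dogs (log2FC 1.15, SE 0.44, edgeR adjusted p = 1), and the log2FC was 0.87 without HGA 10, which is from a neutered dog. The log2FC of SCD was 0.72 (SE 0.73) and 0.32 without HGA 10.

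Other genes around the pathway were taken from 7 lists. Of 75 listed genes 74 were in the table and 65 were tested in HGA versus AGASAC primary, of which 24 (36.9%) were “up” and 5 (7.69%) “down”, beside 12.6% and 12.5% of all genes tested. In the list of precursor and NADPH supply, 7 of 10 tested were “up” and 0 “down” (median log2FC 1.49), and without HGA 10 it was 8. PGD, of the pentose phosphate pathway that yields NADPH, was 2241 ± 893 CPM in HGA (SD, n = 10) and 231 ± 46.3 CPM in AGASAC primary tumors (SD, n = 11), with a log2FC of 3.31 (SE 0.26). SLC25A1, the mitochondrial citrate carrier, was 422 ± 135 CPM against 56.7 ± 15.1 CPM (log2FC 2.93, SE 0.22). Both were lowest of the HGA in HGA 10, at 499 and 110 CPM, and the log2FC without it was 3.43 for PGD and 3.04 for SLC25A1.

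In the elongation cycle and electron transfer, 4 of 9 tested were “up” and 1 “down” (median 1.27). HACD2, a dehydratase of elongation, was 207 to 1773 CPM in HGA and 41.5 to 65.6 CPM in AGASAC primary tumors (log2FC 4.23, SE 0.31), and HSD17B12, the ketoacyl-CoA reductase, was 169 to 1419 against 44.4 to 141 CPM (log2FC 3.58, SE 0.29). Without HGA 10 the log2FC was 4.36 for HACD2 and 3.71 for HSD17B12. The gene that was “down” was CYB5A, a cytochrome b5 that feeds electrons to desaturases (log2FC −1.84, SE 0.25), named after its value was seen. Of the other carboxylase, elongase and desaturase genes, 5 of 9 passed the filter on low counts and 0 were called by edgeR (median −0.66). All 5 had an unadjusted edgeR p under 0.05, which was common among all genes. ACACA, at an unadjusted edgeR p of 0.0122, ranked only 5118 by p among the 12070 genes tested. DESeq2, which tested all 9, called SCD5, a second delta-9 desaturase, “up” and ELOVL2, an elongase of polyunsaturated chains, “down”, and both were named after this result was seen.

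Of the regulators, 2 of 13 tested were “up” and 1 “down” (median −0.17), a share of 23.1% beside the 25.1% of all genes. INSIG2, which retains SREBP in the endoplasmic reticulum, was 46.9 to 264 CPM in HGA and 20.3 to 33.8 CPM in AGASAC primary tumors (log2FC 1.90, SE 0.24). LOC481228, which RefSeq names SREBF2 by its gene number, was 28.4 to 58.4 against 94.9 to 222 CPM (log2FC −1.52, SE 0.18). Without HGA 10 these were 1.86 for INSIG2 and −1.46 for LOC481228. SREBF1 had a log2FC of −0.60 (SE 0.19, edgeR adjusted p = 0.117) and was not called. The acyl-CoA synthetases had 4 of 5 tested “up” and 1 “down” (median 3.47). ACSL1, which activates long chains, was 80.0 CPM in HGA 10, 1364 to 6932 CPM in the other HGA and 6.56 to 43.0 CPM in AGASAC primary tumors (log2FC 7.14, SE 0.55, and 7.29 without HGA 10). ACSL5 was highest of the HGA in HGA 10, at 1475 CPM against 146 to 463 CPM (log2FC 3.52, SE 0.49, and 3.02 without HGA 10).

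In glycerolipid, wax and triglyceride synthesis, 4 of 16 tested were “up” and 2 “down” (median 0.47, also with AWAT2 at the lower end of the interval given next). AWAT2, a wax synthase, held 531 counts in HGA and 1 in AGASAC primary tumors, a ratio of 552 per total count (95% exact interval 98.6 to 21828, counting error only). DGAT2, which completes triglycerides, was 3.82 to 290 CPM in HGA and 0 to 3.82 CPM in AGASAC primary tumors (log2FC 5.69, SE 0.62, and 5.75 without HGA 10). In mitochondrial fatty acid synthesis, 3 of 7 tested were “up” and 0 “down” (median 0.95). These were MCAT (log2FC 2.85, SE 0.28), OXSM (log2FC 2.02, SE 0.34) and CBR4 (log2FC 1.55, SE 0.23), which act in the mitochondrial pathway that is separate from FASN. Against the metastases, 21 of the 68 tested genes of the 7 lists were “up” in HGA (30.9%) and 5 “down” (7.35%), beside 8.4% and 7.69% of all genes.

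Markers of other cells moved with these genes, and their part in the differences was not tested. Sebaceous markers summed to 1208 to 5026 CPM in HGA and 91.7 to 1916 CPM in AGASAC primary tumors, with 5 of 7 tested “up”. KRT79 and AWAT1 were at 0 in all AGASAC primary tumors. AWAT1 was also at 0 in most HGA, with at most 4.92 CPM, and was not tested. PLIN2, a lipid droplet protein of many cell types, was 76.7 to 1837 CPM in AGASAC primary tumors and 115 to 658 CPM in HGA, and was not called. Adipocyte markers, with 8 of 8 genes in the table, summed to 309 to 1543 CPM in HGA and 14.4 to 408 CPM in AGASAC primary tumors, with 3 of 5 tested “up” and ADIPOQ “down”. ADIPOQ, the defining adipokine, was 0 to 22.5 CPM in HGA and 1.78 to 399 CPM in AGASAC primary tumors. The 3 “up” were CIDEC, also a lipid droplet protein, at 96.5 to 1264 CPM in HGA, FABP4 (log2FC 3.92) and LPL (log2FC 4.41). CFD was not called. LEP, PLIN1 and PLIN4 were not tested. LEP was at 0 in 8 of 10 HGA and 9 of 11 AGASAC primary tumors. The median in HGA was 34.7 CPM for PLIN4 and 1.30 CPM for PLIN1, and both medians were 0 in AGASAC primary tumors. Squamous or basal markers summed to 3233 to 12874 CPM in HGA against 62.9 to 218 CPM, and glandular luminal markers to 78.3 to 1528 CPM against 4823 to 10085 CPM. The hepatocyte markers, with 4 of 6 genes in the table, summed to 6.02 to 29.6 CPM in HGA and 5.70 to 21.9 CPM in AGASAC primary tumors. Skeletal muscle markers summed to 0 to 15.6 CPM in HGA and 8.02 to 857 CPM in AGASAC primary tumors, with 2 of 2 tested “down”. Endothelial markers summed to 193 to 547 against 48.9 to 226 CPM, with 1 of 4 tested “up”, and macrophage markers to 84.8 to 329 against 171 to 491 CPM, with 1 of 7 “down”. None of the 6 fibroblast, 1 B cell, 2 T cell and 2 hepatocyte markers tested were called.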

How the data were processed

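QuantSeq 3′ reads of 25 canine FFPE tumors were analysed as deposited. The authors trimmed reads (Cutadapt), aligned them (STAR) to CanFam3.1 and counted them (featureCounts) in rounds, the second on annotation extended by 2 kb at the 3′ end, dividing each multi-mapped read equally among the places it matched. Versions were not given in the sources used here. The authors deposited raw counts per gene without normalization, which were used here. The deposited signal (the authors' counts after division by each sample's size factor) and the columns of the authors' own comparison (mean, log2 fold change, standard error, p and adjusted p) were not used. Genes sharing reads with a near-identical copy are uncertain under this counting.

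Tests were run in R 4.3.3 with edgeR 4.0.16 (TMM, filterByExpr with minimum count 10, quasi-likelihood test, Benjamini-Yekutieli adjustment over all tested genes) and DESeq2 1.42.0 (Wald test, no shrinkage) as an alternative, in which no sample was dropped or imputed. The standard error was taken as |log2FC| over the square root of F. Ratios and correlations used log2(CPM + 1) and two-sided permutation tests with 100000 resamples. For the ratios only, the test was exact where a group had fewer than 10 samples. The code was tested on simulated data. No pair of samples of a group agreed within sampling noise (chi-square per degree of freedom at least 13.5).

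Metastasis and primary tumor of the same number came from the same dog by the labels. Their deviations from the group means correlated at 0.730, 0.517, 0.572 and 0.428.

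The genes and lists were chosen with earlier results of these data known. Named were the members, the 2 genes with the largest absolute log2FC among those called in each list around the pathway, and the 3 genes with a symbol most like SCD and FASN. CYB5A, CBR4, SREBF1, SCD5, ELOVL2 and the genes most like SCD without HGA 10 were named after their values were seen. RNA extraction batches and naming series came from the study's supplementary files, and 1 AGASAC primary tumor has no naming series there. RefSeq names came from UU_Cfam_GSD_1.0, a different build, so coordinates and sequences were not used here.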

Additional observations from a re-analysis of the deposited data

Results flagged for a closer look

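Within the 10 HGA, HGA 10 was far below the nearest other sample relative to the range of the group, on log2(CPM + 1), in SCD at 2206 CPM, in ACLY at 465 CPM and in FADS2 at 0.430 CPM. The gap to the next sample was 0.711, 0.481 and 0.517 of the range, above the critical value of 0.466 for 10 samples. For a single gene, chance gives a gap above the critical value in about 1 of 20 groups. More than 1 gene was looked at, and HGA 10 is the same library in all 3 genes. FADS2 held 1 count there, under the limit of 3 counts, and with HGA 10 set to that limit (1.29 CPM) the gap was 0.436, below the critical value. No metastasis stood apart in this way in any of the 10 genes, and the 11 AGASAC primary tumors were not tested for it.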

How the results depend on the processing

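SCD, ELOVL5, ACLY, FASN and ELOVL1 kept their direction in the HGA versus AGASAC primary comparison under all alternatives run, and 5 of the 9 genes were called under each except in small subsets, where the count was 2 (RNA extraction batch 5), 2 (batch 6), 3 (batch 8) and 3 (first naming series). ELOVL6 turned negative within batch 5 (−0.58), batch 6 (−0.79), batch 8 (−2.16), the first naming series (−1.51), with batch as a term (−1.26) and without HGA 10 and HGA 4 (−1.35, chosen after seeing the data), and ranged from −0.94 to 0.75 when 1 tumor was left out. ACACA was −0.29 within batch 5 and FADS2 −0.31 within the first naming series. Against the metastases, ELOVL6 was −0.037 with library size alone and ranged from −1.33 to 0.62 when 1 sample was left out, and FADS2 from −0.71 to 0.53. The cause was not tested. Over all genes, the calls were 3032 of 12070 tested in HGA versus AGASAC primary, against 1452 of 7410 with at least 10 counts in every sample and 262, 637 and 338 within batches 5, 6 and 8. In HGA versus metastasis they were 2124, against 1153 with that stricter filter and 3536 with Benjamini-Hochberg adjustment.

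With the replicate block, which is a paired fit by dog, the metastasis and primary comparison called 0 of the 9 genes, as did the fit without it, and ELOVL5 was 0.22. Against all 11 primary tumors, FADS2 was 0.82, ELOVL5 0.77, ELOVL6 0.37 and LOC483793 0.74. When 1 sample was left out, log2FC ranged from −0.11 to 0.24 for ACACA, −0.20 to 0.0012 for ACLY, −0.61 to 1.13 for ELOVL5, −0.56 to 0.14 for ELOVL6, −0.91 to 0.75 for FADS2, −0.45 to 0.31 for FASN, −1.54 to 0.41 for LOC483793 and −0.21 to 0.11 for SCD. In intact versus neutered HGA the ranges were −0.57 to 0.059 for ACACA, −0.11 to 1.64 for ELOVL4, −0.20 to 0.70 for ELOVL5, −2.61 to 1.42 for ELOVL6 and −0.16 to 1.33 for LOC483793. The log2 ratio of ELOVL4 to ELOVL1 was 0.42, 0.81 and 0.47 within batches 5, 6 and 8 and ranged from −0.26 to 0.18 when 1 tumor was left out. The correlations with FASN gave 0 relations past the threshold without the 2 farthest samples and with library size alone. Depth limits FADS2, ELOVL4, LOC483793 and ELOVL1, which held 0 to 14 counts in HGA 10, and ELOVL6, which held 2 in HGA 9.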
